A study of Homo sapiens with 12 samples.

Results

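Cancer-testis antigen genes are a loose collection of gene families whose transcripts are normally found in the germ cells of the testis and in tumours. Here they were followed in HAP1 cells, a near-haploid human line of chronic myelogenous leukemia origin, labelled as knocked out for SETDB1, a histone H3 lysine 9 methyltransferase. Members were taken by the start of the gene symbol alone (MAGEA, MAGEB, MAGEC, GAGE, PAGE, XAGE, SSX, CT45A, CTAG, CSAG, SPANX or PRAME), which gave 148 of the 58735 genes in the count tables. Of these, 100 lay on chromosome X, 31 lay on chromosome 1 and 113 were protein coding. The symbols also admitted 45 genes of separate families: the 30 PRAMEF genes, the 14 CTAGE genes and SSX2IP, which encodes a binding partner of SSX proteins.

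The 2 groups compared were wild-type HAP1 cells and a SETDB1 knockout derivative of the same line, each with 3 biological replicates sequenced from total RNA with a non-directional kit. The labels give the genotypes as WT and SETDB1 knockout and name no treatment; the number of knockout clones is not stated. A further 6 libraries, 3 per genotype, were made with a directional kit and are used here only for description. The non-directional libraries held 8921959 to 10199215 gene counts, so that 3 counts, taken as the smallest readable value, corresponded to 0.294 to 0.336 CPM (counts scaled to the same total of gene counts in each library). Reads aligned to more than one place made up 6.86 to 7.19% of the listed reads of these libraries and were assigned to no gene. Gene counts of the knockout replicates agreed within sampling noise (chi-square per degree of freedom 0.956 to 0.991), whereas those of the wild type did not (1.03 to 2.00). The p-values below rest on a spread fitted over both genotypes together, which the small knockout spread lowers. The labels number the knockout libraries as separate biological replicates, and they were counted as 3. Counted as 1 summed sample, they gave log2 fold changes, knockout against wild type, of 5.84 for PRAME and -0.47 for SSX2IP. With 3 the values were 5.83 and -0.47. The other members called below had few or no wild-type reads, so a refit could hardly change their direction. Of 10 haematopoietic markers, 5 had no read in any of the 6 libraries, among them CD33, MPO and SPI1, and CD34, GATA1 and PTPRC had at most 2 counts in a library, so that the labelled leukemia origin was not visible in these markers. KIT and RUNX1 were present in both genotypes.

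These genes are silent in most somatic cells. Their promoters are held by DNA methylation and by repressive chromatin, of which histone H3 lysine 9 methylation is a part, and loss of such marks is known to release single members in tumour lines. Most belong to X-linked families that expanded recently, and sister copies can be nearly identical. The products include adaptor proteins of ubiquitin ligases (type I MAGE proteins and PRAME, a leucine-rich repeat protein of a cullin 2 ligase), transcriptional repressors (SSX proteins) and small proteins of uncertain function (CT45A, GAGE and SPANX).

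The sequences just upstream of 5 of the families' active genes are shown first, because methylation acts on CG dinucleotides; each CG is in capitals. They come from RefSeq (GRCh38.p14), run 5′ to 3′ on the strand of the gene, and stop at or before the outermost start that GENCODE 29 gives the gene, so they hold none of the exons it lists. The PRAME stretch lies within an antisense noncoding gene. The windows lie at chr22:22559362-22559515 (minus strand, PRAME), chrX:30215313-30215559 (plus strand, MAGEB2), chrX:48196796-48197045 (minus strand, SSX5), chrX:135713389-135713452 (plus strand, CT45A1) and chrX:135889087-135889146 (minus strand, CT45A10).
PRAME: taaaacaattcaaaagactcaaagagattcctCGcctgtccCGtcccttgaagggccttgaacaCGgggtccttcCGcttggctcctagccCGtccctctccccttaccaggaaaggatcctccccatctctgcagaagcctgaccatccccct
MAGEB2: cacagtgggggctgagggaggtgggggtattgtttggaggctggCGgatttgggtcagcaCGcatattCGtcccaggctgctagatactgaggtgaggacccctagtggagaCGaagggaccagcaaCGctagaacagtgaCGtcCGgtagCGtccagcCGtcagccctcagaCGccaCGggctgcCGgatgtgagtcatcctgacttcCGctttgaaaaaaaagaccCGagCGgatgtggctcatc
SSX5: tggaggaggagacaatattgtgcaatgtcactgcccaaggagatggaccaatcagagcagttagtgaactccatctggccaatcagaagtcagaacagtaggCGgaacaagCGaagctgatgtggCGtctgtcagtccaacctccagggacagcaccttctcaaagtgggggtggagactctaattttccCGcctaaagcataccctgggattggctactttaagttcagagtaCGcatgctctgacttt
CT45A1: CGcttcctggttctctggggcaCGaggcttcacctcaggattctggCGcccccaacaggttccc
CT45A10: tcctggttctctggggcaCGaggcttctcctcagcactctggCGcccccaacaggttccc

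The CT45A1 and CT45A10 stretches shared 57 of 60 bases when aligned at their ends, which shows how alike these copies are even outside the transcript. In the whole 250 bases before the RefSeq start, MAGEB2 held 15 CG, the outermost PRAME start 9, CT45A1 7 and SSX5 5. CT45A10 has 2 RefSeq starts. Its outer window, which lies within the SAGE1 gene, held 16 CG. Its inner window, to which the stretch above belongs, held 7. All 35116 promoters of the table had a median of 11 CG in that window (quartiles 3 and 23), and the 114 promoters found for 94 of the 148 members a median of 7 (quartiles 4 and 11). MAGEB2 and the outer CT45A10 window thus lay above the median of all promoters and the other windows named here below it, all within the quartiles. The ETS-type core CCGGAA, searched on both strands, was in 14.5% of all windows and in 5.26% of the member windows; the outermost PRAME window held 1 copy and the outer CT45A10 window 2, and the MAGEB2, SSX5, CT45A1 and inner CT45A10 windows held none.

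Most members were not detected in either genotype. In the 6 non-directional libraries, 122 of the 148 had no read at all, 15 had 1 to 3 reads in total, 3 had more than 3 reads but stayed below the filter on low counts, and 8 passed it (at least 10 counts in 3 libraries, scaled to depth). Among all 58735 genes 29786 had no read in these libraries, and among 2275 chromosome X genes outside the families 1246. No read was counted for the GAGE (13 genes), XAGE (5), CSAG (4) or CTAG (3) families, the last including the genes of the NY-ESO-1 antigen. Sister copies in these families share sequence, and reads aligned to more than one place were not counted. Of the 18 MAGEA genes, which include the best known tumour antigens of this class, MAGEA8 alone had a read (1 in each of 2 libraries). For an undetected gene whose reads can be placed uniquely, the depth allows a level up to 0.336 CPM. For near-identical copies it gives no such bound.

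**Figure D1:**
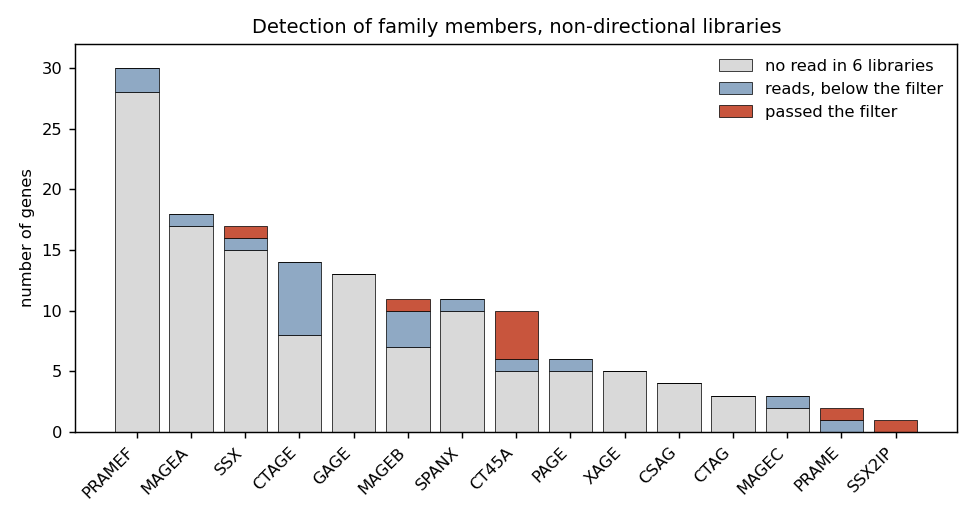
Number of genes in each family (bars, split by detection in the 6 non-directional libraries). Genes that passed the filter are found in PRAME (1), CT45A (4), MAGEB (1) and SSX (1), plus SSX2IP, while 122 of 148 genes had no read.

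Of the 8 members that passed, 7 were called higher and 1 lower in the knockout (edgeR adjusted p under 0.05). Among all 13778 genes tested, 51.5% were called, 25.5% higher and 25.9% lower; among the 507 tested chromosome X genes outside these families 31.4% were called higher and 32.1% lower. Of the 8, 6 reached the filter in knockout libraries only and could hardly have passed without differing, so that their count carries no weight of its own and each is described by its reads. PRAME and SSX2IP passed in both genotypes. In these bulk libraries, more cells with a transcript and more transcript per cell cannot be told apart.

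SETDB1, the targeted gene, had 651, 543 and 519 counts in the wild-type replicates and 118, 106 and 118 in the knockout replicates. Its transcript was thus lowered but not absent (log2 fold change -2.39, SE 0.079, edgeR adjusted p = 7.02e-43).

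On the minus strand of chromosome 22 (22547701 to 22559361), PRAME (ENSG00000185686) held most of the families' reads in the knockout. Its counts were 31, 22 and 40 in the 3 wild-type libraries, against 1823, 1799 and 1953 in the 3 knockout libraries. The groups were far apart, and the lowest knockout library lay above the highest wild-type library by a wide margin. The level was 3.25 ± 0.91 CPM against 187 ± 4.4 CPM (SD, n = 3 each), a ratio of 57.2 (exact 95% interval for counting error 46.6 to 71.0). The fitted log2 fold change was 5.83, with an SE of 0.080 and an edgeR adjusted p of 5.77e-71. Per transcript length, it went from 3.51 ± 1.0 to 203 ± 4.9 TPM (counts scaled by exon length and library; SD, n = 3 each). In the wild type 14.9% of the tested genes had a lower TPM, and in the knockout 93.2%. PRAME accounted for 4.13 to 5.63% of all member counts in the wild-type libraries and for 74.8 to 75.7% in the knockout libraries. Every 75-base word of its transcripts was found in no other gene, so its counts were not open to mixing with a sister copy. The antisense gene overlaps 19 bases of its exons and had 1 count in each knockout library.

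**Figure D2:**
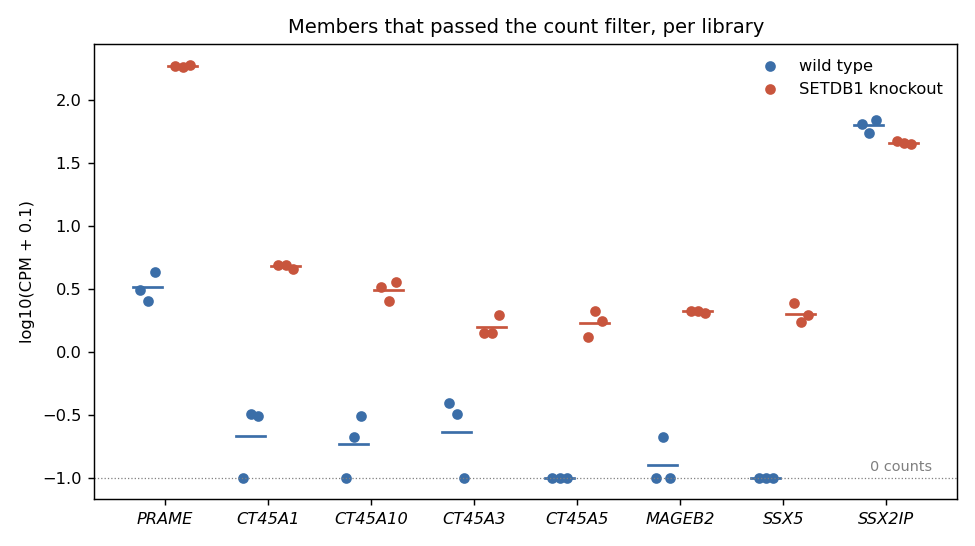
Level of the 8 members that passed the filter in each library, as log10(CPM + 0.1), with the mean of 3 libraries as a line. The 7 genes from PRAME to SSX5 lie higher in every knockout library than in any wild-type library, and SSX2IP lies lower. For the 6 other than PRAME the filter nearly fixed this, since they passed it in knockout libraries only. The share of all tested genes separated in this way was not counted.

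The CT45A genes, arranged in a tandem cluster on the long arm of chromosome X, were the family with the most active members. All 10 together had 3 to 5 counts in a wild-type library and 103 to 118 in a knockout library. CT45A1 (ENSG00000268940, chromosome X, 135713453 to 135723539, plus strand) had 0, 2 and 2 wild-type counts and 47, 47 and 46 knockout counts. The ratio was 33.4 (exact 95% interval 12.8 to 124; edgeR adjusted p = 7.96e-19).

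CT45A10 (ENSG00000269586, 135881063 to 135889086, minus strand) had 0, 1 and 2 against 31, 24 and 36 counts, a ratio of 28.9 (exact 95% interval 9.59 to 143; edgeR adjusted p = 3.63e-14). CT45A3 (ENSG00000269096, 135759846 to 135768191, minus strand) had 3, 2 and 0 against 13, 13 and 19, a ratio of 8.59 (exact 95% interval 3.42 to 27.7; edgeR adjusted p = 6.91e-07). The intervals of these 3 ratios overlap, and the difference in response between the copies was not tested. CT45A5 (ENSG00000228836, 135777130 to 135785298, minus strand) had no wild-type count and 12, 20 and 17 knockout counts, which was at least 5.20-fold higher when each wild-type library is set to its floor of 3 counts (edgeR adjusted p = 8.49e-11). Every knockout library of these 4 genes lay above the wild-type libraries, which the filter nearly fixed, since none had 10 counts in a wild-type library. Without wild-type replicate 1, the log2 fold change went from 4.94 to 4.34 for CT45A1, from 4.69 to 4.11 for CT45A10 and from 3.01 to 3.63 for CT45A3, and without wild-type replicate 3 that of CT45A10 was 5.55; each was still called.

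How far CT45A copies can be told apart was examined through sequence. A word of 75 bases was called unique when no transcript of another gene held it on either strand (GENCODE 29; the read length is not given in the sources used here). CT45A10 had 32.9% unique words, CT45A1 21.1%, CT45A3 11.6% and CT45A5 11.5%. CT45A3 shared 80.5% of its words with CT45A1. The remaining protein-coding copies, CT45A2, CT45A6, CT45A7, CT45A8 and CT45A9, had 5.45% or none, and these 5 were the copies without a read. The counts of this family are therefore a part of its reads, and a copy at 0 may be silent or only unreadable.

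This limit did not hold for many other silent members. Over all families, 31 members had under 10% unique words and none of them had a read, while 61 had at least 90% unique words and 46 of those had no read either. Between these bounds lay 56 members, 45 of them without a read. MAGEA1, MAGEA11, MAGEC1 and MAGEC2 are wholly unique by this measure and were at 0 in all 6 libraries, as were SSX1 (99.0%) and SSX3 (98.8%). GAGE genes, at a median of 4.11% unique words, could hardly have been read. Little unique sequence was also found in the NY-ESO-1 genes CTAG1A (12.2%) and CTAG1B (12.6%), in CSAG2 (4.36%) and CSAG3 (6.5%), and none in XAGE1A. A count of 0 in these copies may mean silent or only unreadable.

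**Figure D3:**
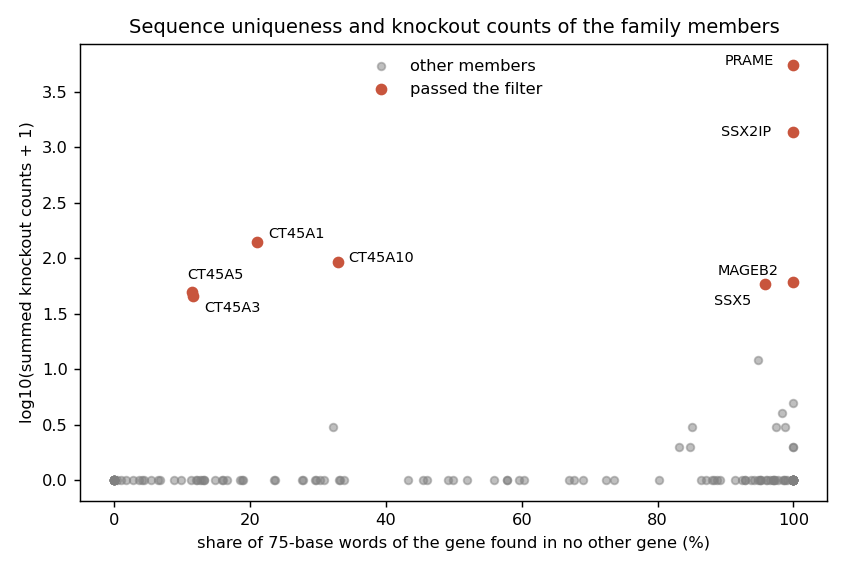
Share of unique 75-base words of each of the 148 members (horizontal axis, %) against its counts summed over the 3 knockout libraries, as log10(sum + 1). The 4 CT45A genes stand at 11.5 to 32.9%, PRAME, MAGEB2 and SSX2IP at 100% and SSX5 at 95.8%, and many members along the bottom are at 100% too.

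MAGEB2 (ENSG00000099399, chromosome X, 30215560 to 30220089, plus strand), a type I MAGE gene of the short arm, had 0, 1 and 0 counts in the wild type and 20 in each knockout library. The ratio of 57.2 has a wide exact 95% interval, 9.89 to 2298, because it rests on a single wild-type read (edgeR adjusted p = 1.12e-11). Without wild-type replicate 2, which holds that read, the fitted log2 fold change went from 5.40 to 7.32 and, with no wild-type read left, is no bound. The family members MAGEB3 and MAGEB4, which start 14.9 and 26.5 kb from MAGEB2, had no read. MAGEB1, at 28.2 kb, had 1 read in all. MAGEB16 had 3, 2 and 1 counts in the wild type and none in the knockout, below the filter.

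SSX5 (ENSG00000165583, chromosome X, 48186220 to 48196763, minus strand), of the repressor family known from the SS18 fusions of synovial sarcoma, had no wild-type count and 23, 16 and 19 knockout counts. This was at least 6.17-fold above the wild-type floor (edgeR adjusted p = 3.80e-12). SSX1, SSX2 and SSX4, the partners found in those fusions, had no read, though SSX2 and SSX4 have no unique word and could hardly have been counted.

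SSX2IP (ENSG00000117155, chromosome 1, 84643707 to 84690803, minus strand) was the member that fell. It encodes a protein of adherens junctions and centrosomes and is expressed widely. It had 662, 495 and 657 wild-type counts and 461, 447 and 461 knockout counts, or 63.4 ± 7.3 and 46.1 ± 0.98 CPM (SD, n = 3 each). The log2 fold change was -0.47 with an SE of 0.059 (edgeR adjusted p = 8.62e-11). The groups did not overlap, for SSX2IP as for PRAME. The share of all tested genes separated in this way was not counted. None of the 7 tested genes within 500 kb of SSX2IP was called, and their log2 fold changes ran from -0.42 to 0.13.

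Compared per length, the active genes of the knockout fell into 3 tiers. PRAME stood at 203 TPM. CT45A1 and CT45A10 followed at 14.5 ± 0.48 and 12.3 ± 2.3 TPM, which do not differ beyond their spread. CT45A5 (5.80 ± 1.4), SSX5 (5.38 ± 1.0), CT45A3 (5.29 ± 1.1) and MAGEB2 (5.12 ± 0.11 TPM; SD, n = 3 each) could not be ordered.

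That order depends on the length used. When knockout counts were divided by unique words, CT45A1 had 17.7 ± 0.22 counts per 100 unique words, CT45A5 13.1 ± 3.2, CT45A3 11.8 ± 2.7 and CT45A10 9.85 ± 2.0 (SD, n = 3 each). MAGEB2 (1.30) and SSX5 (1.36 ± 0.25) then lay well below all 4 CT45A genes, and PRAME (44.5 ± 2.0) still above them. MAGEB2 and SSX5 were thus level with CT45A3 and CT45A5 on the TPM scale and below them on the other.

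The tested genes around the active members are described next. Their fold changes cannot be ranked against those of the CT45A genes, MAGEB2 and SSX5, which passed the filter in knockout libraries only. Within 500 kb of CT45A1, 5 of the 8 tested genes outside the families were called higher and none lower. The 8 log2 fold changes ran from -0.13 to 0.50. Of all tested chromosome X genes outside the families 31.4% were called higher. MMGT1, a membrane magnesium transporter gene that starts 85.0 kb from CT45A10, rose by 0.26 (log2; edgeR adjusted p = 7.23e-06). Around PRAME 3 genes were tested, and ZNF280B, a zinc finger gene, rose (log2 fold change 0.71, SE 0.11, edgeR adjusted p = 2.74e-08). Around MAGEB2 the single tested gene, GK, was not called (log2 fold change -0.12).

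Among all tested chromosome X genes outside the families, 32.1% were called lower and 31.4% higher. Around SSX5 the direction was the opposite of that of SSX5 itself. There 10 of 14 tested genes were called lower and none higher, with a median log2 fold change of -0.40. They included EBP, an enzyme of sterol synthesis (-0.50), FTSJ1, a tRNA methyltransferase (-0.47), SUV39H1, another histone H3 lysine 9 methyltransferase (-0.74), and WAS, a regulator of actin assembly in blood cells (-2.37). SSX5 thus rose within a stretch of the X chromosome whose other tested genes were lower or not called.

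**Figure D4:**
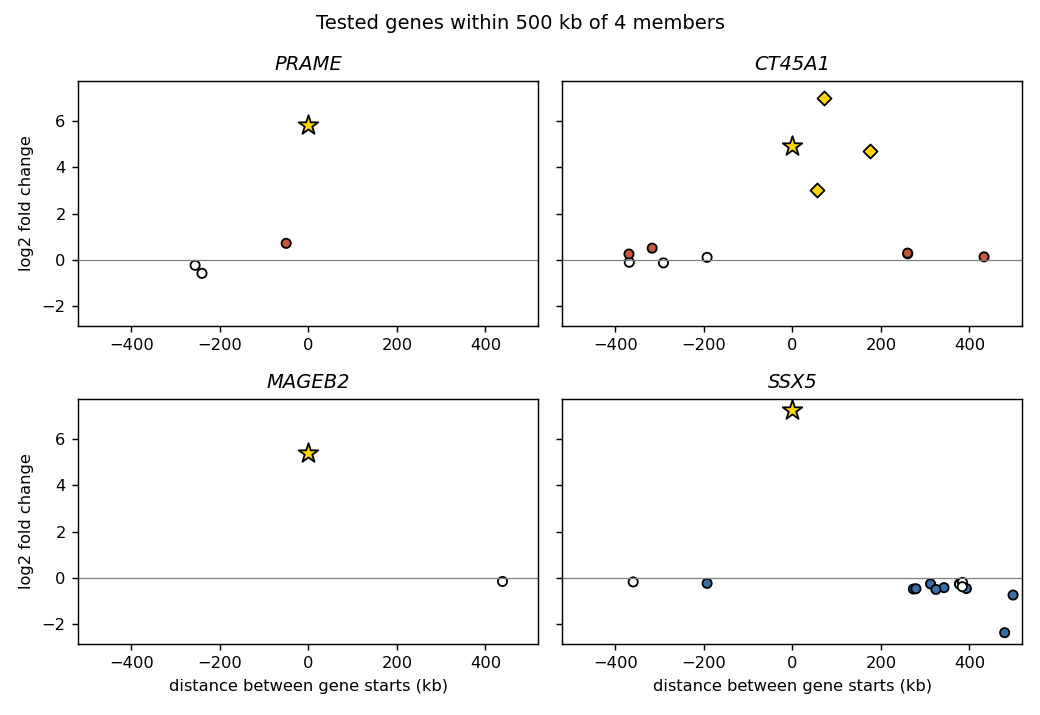
Fitted log2 fold change, knockout against wild type, of tested genes within 500 kb of PRAME, CT45A1, MAGEB2 and SSX5, by distance between gene starts (kb). Stars are the named member and diamonds other CT45A genes, whose fitted heights depend on edgeR's prior count; circles are other genes, filled red if called higher, blue if lower and white if not called.

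Cancer-testis genes outside these families were mostly not detected or stayed below the filter. Of 32 such genes listed, 18 had no read in the 6 libraries, beside 29786 of all 58735 genes. Of the 32, 6 were tested and these 6 were called higher, beside 25.5% of all genes tested. HORMAD1 and CTCFL passed the filter through the knockout alone, so their direction was nearly fixed by it. CTCFL, the germline paralog of the insulator protein CTCF, had 2, 3 and 2 wild-type counts and 934, 975 and 1019 knockout counts (edgeR adjusted p = 4.43e-64). HORMAD1, a meiotic chromosome axis protein, had none against 17, 21 and 14, at least 5.54-fold above the floor (edgeR adjusted p = 2.84e-11).

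The other 4 were already present in the wild type. PLAC1, a trophoblast gene on chromosome X, had 30, 33 and 24 against 158, 142 and 178 counts (log2 fold change 2.38, SE 0.15), and CABYR, a calcium-binding protein of the sperm tail, 86, 60 and 87 against 324, 315 and 316 (1.97, SE 0.098). ACTL8 (0.85, SE 0.026) and TEX15 (0.32, SE 0.056) rose less. The edgeR adjusted p of these 4 lay between 1.04e-44 and 1.31e-06. The X-linked SAGE1, CT83, PASD1, NXF2 and VCX had no read.

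Of 12 germ cell markers, 2 passed the filter, 1 called higher and 1 lower. A further 7 had no read, including the protamine genes PRM1 and PRM2. The summed level of all 12 was 11.2 to 12.7 CPM in the wild type and 9.08 to 9.82 CPM in the knockout. DAZL, an RNA-binding protein of germ cells, fell from 85, 68 and 90 counts to 15, 10 and 10 (log2 fold change -2.85, SE 0.21, edgeR adjusted p = 1.44e-20). UTF1, expressed in undifferentiated spermatogonia and pluripotent cells, rose from 29, 25 and 21 to 67, 71 and 66 (1.37, SE 0.18, edgeR adjusted p = 7.54e-10).

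The type II MAGE genes, which are expressed broadly, and the ligase partners of MAGE and PRAME proteins changed in both directions. Of 19 listed, 13 were tested, 5 called higher and 5 lower by adjusted p (25.5% and 25.9% of all genes tested), with a median log2 fold change of 0.02 beside 0.00 for all genes tested. The sum of their levels overlapped between genotypes (2396 to 2504 and 2400 to 2406 CPM). Among the tested genes MAGEH1 fell most, from 134, 104 and 107 to 49, 40 and 39 counts (log2 fold change -1.50, SE 0.14, edgeR adjusted p = 2.17e-15). MAGEE1 rose (0.58, SE 0.11, edgeR adjusted p = 3.91e-06).

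NSMCE1, the RING partner of a type II MAGE protein in the SMC5/6 complex, had a log2 fold change of -0.52 (edgeR adjusted p = 3.91e-11) and RBX1, the RING subunit of cullin ligases, of -0.25 (edgeR adjusted p = 9.77e-07). CUL2, ELOC and TRIM28 were called with log2 fold changes of 0.15, 0.13 and -0.11, and ELOB was not called (-0.04).

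Of 15 genes that act in the silencing of cancer-testis genes, all were tested, 6 were called higher and 4 lower (25.5% and 25.9% of all genes tested), with a median log2 fold change of 0.02. ATF7IP, the cofactor that stabilises SETDB1, rose most, from 586, 502 and 543 to 1675, 1780 and 1800 counts (log2 fold change 1.62, SE 0.044, edgeR adjusted p = 3.69e-49). MGA, of a repressor complex on germline genes, rose by 0.59 (edgeR adjusted p = 1.74e-25). SUV39H1 fell by 0.74 (edgeR adjusted p = 4.59e-19). The maintenance DNA methyltransferase DNMT1 had a log2 fold change of -0.23 (edgeR adjusted p = 1.01e-10) and the de novo enzyme DNMT3B one of 0.43 (edgeR adjusted p = 1.42e-09). DNMT3A (0.00), EHMT1 (0.02) and EHMT2 (-0.08) were not called.

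**Figure D5:**
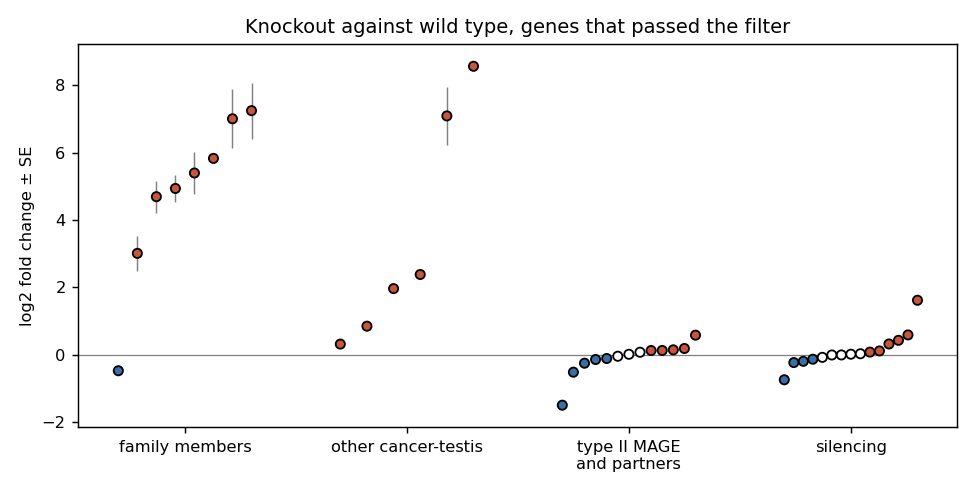
Fitted log2 fold changes (± SE) of the genes that passed the filter among the family members and 3 further gene lists, filled red if called higher, blue if called lower and white if not called. Members and other cancer-testis genes reach far above 2, and the MAGE partners and silencing genes lie between -1.50 and 1.62. Of the 8 members, 6 passed the filter through the knockout alone, as did HORMAD1 and CTCFL. Their direction was nearly fixed by it, so the lists cannot be compared by height.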

How the data were processed

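RNA of 12 HAP1 libraries (4 groups of 3: wild type and SETDB1 knockout, each with a non-directional and a directional kit) was sequenced by the submitters. The authors deposited raw read counts per Ensembl gene in the layout of HTSeq; their processing notes name hg38, Trim Galore 0.4.4, STAR 2.6.0a, SAMtools 1.9, Picard 2.23.8 and HTSeq 0.11.1, with no roles. The annotation, strand setting and read length are not given in the sources used here. The deposited tables of L1 loci were not used here.

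All 58735 gene IDs matched GENCODE 29 (GRCh38), which gave symbols, positions and exon lengths. Groups and replicate numbers came from the sample titles. Non-directional gene counts (8921959 to 10199215 per library) were filtered with filterByExpr (minimum count 10, minimum total 15), scaled by TMM and compared in edgeR 4.0.16 (R 4.3.3) by its quasi-likelihood test, with Benjamini-Hochberg adjustment over all 13778 genes tested and a threshold of 0.05. The test was checked on simulated counts. Approximate SEs were derived from the fitted log2 fold change and its F statistic. CPM is scaled to a library's gene counts, and TPM uses summed exon length. Ratios are of summed counts scaled by TMM library sizes, with exact (Clopper-Pearson) 95% intervals; intervals and the floor of 3 counts cover counting error only, since reads are not independent molecules. Reads that cannot be placed uniquely lower the counts of near-identical copies. Without strand, sense and antisense reads cannot be told apart.

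Same-numbered libraries did not deviate together (correlations 0.016, 0.004 and -0.027 over 10928 genes with a mean of at least 50 counts), so the numbers were not taken as pairs. Named genes were SETDB1, every member past the filter, the members with most reads below it and, of each further list, the 4 with the smallest p; other genes were named after their values were seen. The members and lists were chosen with earlier results of these data known. Alternatives were DESeq2 1.42.0 (Wald test, and size factors in edgeR), no filter, a replicate block, each library left out, a fold threshold, and the knockout libraries summed to 1 sample.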

Additional observations from a re-analysis of the deposited data

Results flagged for a closer look

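PRAME had 8, 8 and 4 counts in the 3 directional knockout libraries and 0 in each directional wild-type library, a signal in data that entered no comparison, with a lowest knockout count of 4. The directional libraries held 532021 to 676691 gene counts, their share of reads in no gene was 94.6%, and the strand that was counted is in doubt, so these counts cannot be assigned to sense transcription. The antisense gene at the PRAME locus had 0, 1 and 0 counts in the same knockout libraries. CT45A1, CT45A3, CT45A5, CT45A10 and SSX5 had no directional count, and MAGEB2 had 1. The difference was not tested.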

How the results depend on the processing

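The 7 members called higher and the 1 called lower kept direction in all 11 alternative fits, the knockout libraries summed to 1 sample among them. In the fits with more than 1 knockout sample each also kept its call, with a largest adjusted p of 4.70e-04 (CT45A3, DESeq2 Wald test). For the 6 members that passed the filter in knockout libraries only, this was nearly fixed. PRAME and SSX2IP alone passed in both genotypes. The log2 fold change lay between 5.68 and 6.06 for PRAME, 4.11 and 5.55 for CT45A10 and 4.90 and 7.32 for MAGEB2. When genes also had to change by a log2 value of 1 or more in either direction, 1074 of the 13778 genes tested remained. Among them were 7 members higher and 0 lower. Without SSX2IP, PRAMEF and CTAGE genes, a choice made after the data were seen, 103 members were left, with 7 called higher and 0 lower. With the replicate number as a block (replicate block) 7074 genes were called against 7089, 7031 of them in both, and it changed no call of a member. With no filter 26 members could be tested and again 7 were called higher and 1 lower, among 7112 genes called in all. Every gene with a read was tested in that fit, and 29786 of the 58735 genes had none. Counts of all genes called ran from 6394 to 7134 with each library left out. The lone summed knockout sample is assumed to vary like the wild type. Depth limits statements on the 122 undetected members to levels above 0.336 CPM, and copies without unique sequence could not be read.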

Other observations

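These values belong to genes of the families and lists that stayed below the filter and were not tested; TRO and TEX14 were picked after their values were seen. CTAGE7P, a pseudogene of the CTAGE family, had 6, 5 and 4 wild-type counts and 3, 4 and 4 knockout counts, the most reads of any member below the filter. MAGEC3 had 0 wild-type counts and 0, 2 and 2 knockout counts, and SSX6P 0 against 1, 2 and 0. CTAGE3P and CTAGE12P had 3 reads each in all. Among broadly expressed MAGE relatives, TRO had 8 counts in each wild-type library and 1, 2 and 1 in the knockout, the opposite direction to MAGEB2 on the same chromosome. TEX14, a testis kinase-like gene, had 1, 7 and 0 wild-type counts and 9, 13 and 15 knockout counts.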
